A study of Mus musculus with 32 samples.

Results

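The adult hemoglobin genes were examined in RNA-seq libraries of the vomeronasal organ (VNO), the chemosensory organ in which rodents detect pheromones. The 5 genes were chosen by name: the alpha globins Hba-a1 and Hba-a2, the beta globins Hbb-bs and Hbb-bt, and Alas2, the heme synthesis enzyme of red cells. They are 5 of the 49671 genes in the count table, and all 5 passed the filter on low counts that left 18382 genes to test. The study compared VNO expression between the sexes and among mouse strains. Each of the 32 libraries was made from the VNO epithelium of 1 untreated mouse at postnatal day 42, with 4 males and 4 females of each of 4 strains labelled 129S6/SVEV (129), C57/BL6 (B6), SJL/J (SJL) and SWR/J (SWR). The paper names another 129 substrain, 129Sv/J. The labels name no allele of the globin genes, and no source used here says whether blood was washed out before dissection.

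Hemoglobin carries oxygen in red cells as a tetramer of alpha and beta chains, each holding a heme group. In the mouse the alpha genes lie in tandem in a cluster on chromosome 11 and the beta genes in a cluster on chromosome 7, and in each cluster embryonic genes are silenced as the adult genes are turned on. Alas2 catalyses the first, rate-limiting step of heme synthesis in erythroid cells, while Alas1 does so in other cells. The beta cluster is a textbook polymorphism: B6 carries the single haplotype, after which Hbb-bs and Hbb-bt are named, and 129 strains are generally known to carry the diffuse haplotype, whose adult genes are called Hbb-b1 and Hbb-b2 and code for beta chains that differ from each other. Mature red cells have no nucleus, and young ones still hold globin mRNA, so that blood in a tissue brings globin reads into its library. In bulk tissue fewer red cells and less globin RNA per cell cannot be told apart.

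Only reads with a single place in the B6-based reference genome were counted, so the bases that separate the gene copies are shown first. In the annotated build GRCm38, Hba-a1 spans chr11:32283511-32284465 on the plus strand and Hba-a2 chr11:32296489-32297298 on the plus strand. The main transcripts of the pair align over 538 bases with 1 difference, the substitution C381T, with coding bases counted from 1 at the A of the start codon. Hbb-bs spans chr7:103826534-103828096 and Hbb-bt chr7:103812524-103813996, both on the minus strand. The beta pair also has 1 coding difference, C417T. Both changes are silent, in codon 127 (GAC and GAT) of the alpha genes and in codon 139 (GCC and GCT) of the beta genes, so each pair codes for 1 protein in this reference. The coding stretches around the differences, at chr11:32284303-32284383, chr11:32297120-32297200, chr7:103826665-103826732 and chr7:103812656-103812723, are printed 5′ to 3′ with the differing base in capitals.
Hba-a1: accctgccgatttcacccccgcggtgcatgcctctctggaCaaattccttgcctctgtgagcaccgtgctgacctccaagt
Hba-a2: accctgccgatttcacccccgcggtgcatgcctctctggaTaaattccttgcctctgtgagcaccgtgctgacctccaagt
Hbb-bs: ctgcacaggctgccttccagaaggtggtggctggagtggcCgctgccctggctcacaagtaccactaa
Hbb-bt: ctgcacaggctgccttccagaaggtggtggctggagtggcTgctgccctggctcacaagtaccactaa

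These few bases decide how much of each gene a read can tell apart. Of the 414 windows of 1 read length within the aligned stretch of the alpha transcripts, 291 were identical in both genes and 123 covered the differing base. The beta transcripts had 619 aligned bases with 39 differences, of which 29 lay in the 3′ untranslated region, 9 in the 5′ untranslated region and 1 in the coding region. Of the windows of Hbb-bs 60.7% also occurred in Hbb-bt, and of those of Hbb-bt 52.8% occurred in Hbb-bs. A pair of reads is placed by both of its ends, so these shares describe single reads. The counts are therefore counts of the assignable part of each gene in the reference sequence, and which bases the 129, SJL and SWR alleles hold at these sites was not analysed here.

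All 5 genes were found among the RefSeq promoter windows of build GRCm38.p6, which run from 250 bases before to 50 after the annotated start. The 30 bases from 98 to 69 before the start are printed for 4 genes, with matches to 5 motifs searched on both strands in capitals. The motifs were the GATA-type words AGATAA and TGATAA, the CACC-box word CCACACCC, the TATA-box word TATAAA and CCAAT. Other matches lie outside these stretches. In Hbb-bt, CCAAT on the opposite strand lies 36 bases and TATAAA 28 bases before the start. The stretches lie at chr11:32283574-32283603 (+), chr7:103827997-103828026 (-), chr7:103813992-103814021 (-) and chrX:150547319-150547348 (+).
Hba-a1: cacaaaccagCCAATgagaactgctccaag
Hbb-bs: tagagCCACACCCtggtaagggCCAATctg
Hbb-bt: gcagggtaacaccctggcATTGGCCAATct
Alas2: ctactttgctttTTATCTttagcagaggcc

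CCAAT was found in the windows of the 4 globin genes and in 37.4% of the 32817 windows of all genes. CCACACCC occurred in Hbb-bs alone among the 5 genes, 93 bases before the start, against 3.56% of all windows. AGATAA occurred in Hbb-bs and Alas2 (11.2% of all windows), TGATAA in both alpha genes (9.06%) and TATAAA in Hbb-bt and Alas2 (13.6%). In Alas2 the AGATAA match lies on the opposite strand, read as TTATCT. The TATAAA match of Alas2 lies on that strand too, read as TTTATA, 209 bases before the start. Only exact words were counted, and the letters catataag near the start of Hba-a1, Hba-a2 and Hbb-bs are no match. The windows of the alpha genes were identical over 297 aligned bases, while those of Hbb-bs and Hbb-bt were identical at 79.2% of the aligned bases. These matches are words in the reference sequence and were not tested for binding.

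The libraries held 5106398 to 18640871 reads on genes. No 2 libraries of a group looked like repeats of 1 library: over genes their chi-square divided by its degrees of freedom was 2.71 or more in all 48 pairs. The vomeronasal sensory neuron (VSN) marker Omp was present at a mean normalized count of 18202. None of the 9 tested VSN markers was differentially expressed (DE) between strains, beside 19.8% of all tested genes called in at least 1 pair. The summed level of the VSN list ran from 71186 to 87036 normalized reads in 129 and from 56817 to 66707 in B6, without overlap. It ran from 61605 to 79645 in SJL and from 69967 to 87641 in SWR. One 129 male, replicate 1, stood apart from the rest of its strain for the globin genes, and results that rest on it are given without it as well.

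Globin reads were a small part of every library, between 10.3 and 48.0 of every 1000000 reads on genes. By mean normalized count over the 32 libraries Hbb-bs (153) was the 9719th of the 18382 tested genes, Hba-a1 (93.8) the 11258th, Hbb-bt (17.3) the 15377th, Hba-a2 (12.2) the 16240th and Alas2 (10.3) the 16681st. Per kilobase of annotated exon the mean normalized level was 199 ± 85.2 for Hbb-bs, 115 ± 61.7 for Hba-a1, 24.6 ± 14.0 for Hbb-bt, 18.3 ± 24.1 for Hba-a2 and 4.30 ± 2.31 for Alas2 (SD, n = 32). The exon length includes stretches shared by the gene copies, in which a single read cannot be placed. The order is therefore one of assignable reads. Per kilobase Hbb-bs was highest in each of the 4 strains and Hba-a1 was second. Hba-a2 followed in 129 and B6, at 32.2 ± 27.6 and 40.7 ± 15.8, with Hbb-bt at 11.8 ± 6.48 and 26.0 ± 18.4 there, and the order of the pair is within these SDs. Raw counts in single libraries reached 375 for Hbb-bs, 247 for Hba-a1, 68 for Hba-a2, 41 for Hbb-bt and 23 for Alas2, which limits the precision of the last 3 in particular.

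**Figure D1:**
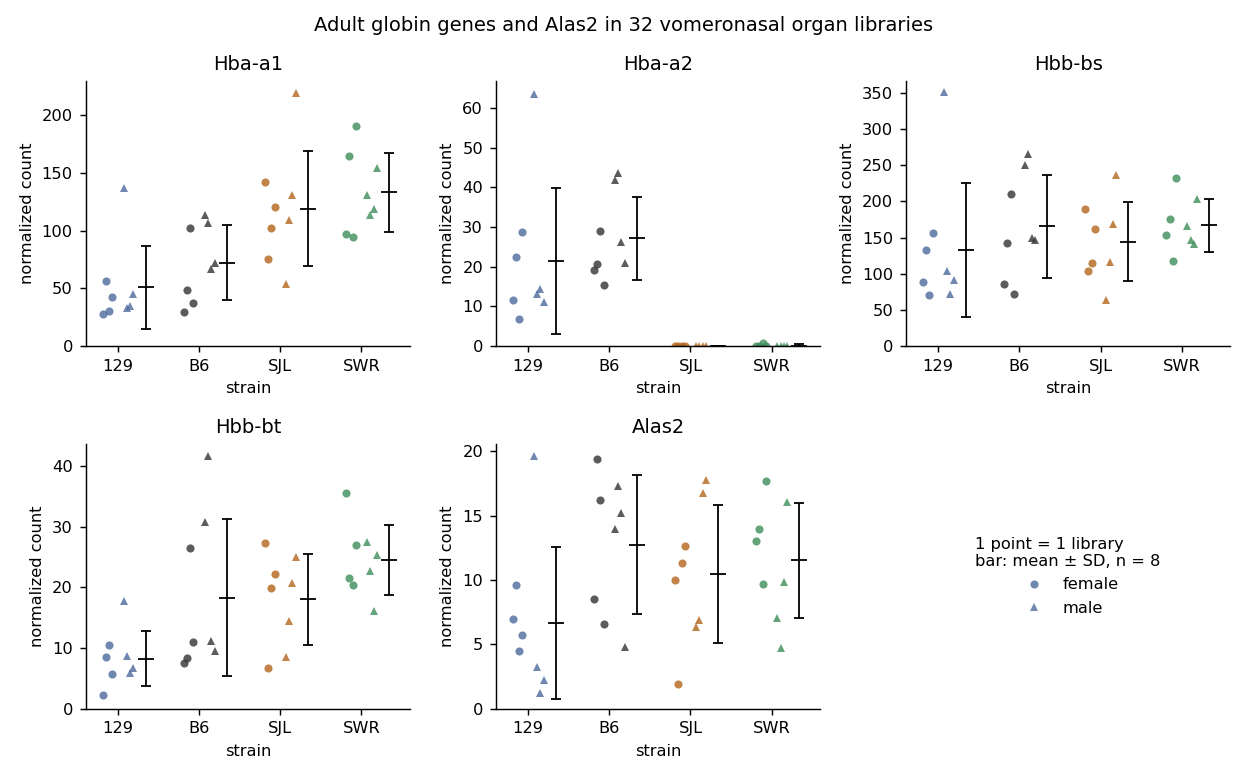
Normalized counts of the 5 genes in each of the 32 libraries, by strain, with females and males marked apart and bars for the strain mean and SD (n = 8). Hba-a2 sits at 0 in the SJL libraries and in all but 1 SWR library, and 129 male 1 lies above the other 129 libraries for Hba-a1, Hba-a2, Hbb-bs and Alas2.

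The reads placed on Hba-a1 were more in the Swiss-derived strains SJL and SWR than in 129. Whether reads of Hba-a2 were among them in SJL and SWR was not tested. In 129 the normalized counts of Hba-a1 ran from 27.9 to 137 with a median of 38.7, and the mean was 50.8 ± 35.9 (SD, n = 8). In B6 they ran from 29.8 to 114 (median 69.2, mean 72.1 ± 32.6). In SJL they ran from 53.7 to 219 (median 114, mean 119 ± 49.6). In SWR they ran from 94.6 to 190 (median 124.9, mean 133 ± 33.98). The ranges of the strains overlapped. In 129 the highest library, male 1, lay at 137 and the next at 56.5. Without male 1 the 129 libraries still overlapped those of SJL (lowest 53.7) and B6 (lowest 29.8) but not those of SWR (lowest 94.6). With edgeR's quasi-likelihood test, in which a gene was called DE at an absolute log2 fold change (LFC) over 1 and a Benjamini-Hochberg false discovery rate (FDR) under 0.05, Hba-a1 rose in SJL over 129 (2.33-fold, LFC 1.22 ± 0.29 SE, FDR 0.000879). It also rose in SWR over 129 (2.63-fold, LFC 1.40 ± 0.28, FDR 0.000149). Against B6 it passed the FDR but not the fold change, at an LFC of 0.69 ± 0.28 in SJL (FDR 0.0414) and 0.87 ± 0.28 for SWR (FDR 0.0115). The LFC of B6 over 129 was 0.53 ± 0.30 (FDR 0.137) and that of SWR over SJL 0.18 ± 0.26 (FDR 0.651), and neither passed. In each of the 4 sequencing lanes the mean of SJL and of SWR was above that of 129, by 0.49 to 1.86 and by 0.85 to 1.93 on the log2 scale. Leaving out any single library changed neither call against 129, but leaving out all libraries with replicate number 4 took SJL over 129 under the fold threshold (LFC 0.97). Without 129 male 1 the LFC over 129 was 0.91 in B6 (FDR 0.00566), 1.59 in SJL and 1.76 for SWR, while the difference between SWR and B6 became a call without B6 female 3 (LFC 1.02).

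Hba-a2, the second alpha gene, was counted in 129 and B6 and was at or near 0 in SJL and SWR. Its normalized counts ran from 6.75 to 63.6 in 129 (median 13.7, mean 21.5 ± 18.4, n = 8) and from 15.4 to 43.7 in B6 (median 23.7, mean 27.2 ± 10.5, n = 8). In raw counts 177 reads fell on Hba-a2 over the 129 libraries and 210 over the B6 libraries. No read fell on it in the 8 SJL libraries, and 1 read fell on it in the 8 SWR libraries, in female 3. The libraries of 129 and B6 therefore did not overlap those of SJL and SWR, while 129 and B6 overlapped each other. Of the 18382 tested genes 11.9% did not overlap between SJL and 129 and 13.5% between SWR and 129. Against B6 these shares were 13.1% for SJL and 12.5% for SWR. Set against a floor of 3 reads in each library, Hba-a2 was at least 7.42-fold higher in 129 than in SJL and at least 9.40-fold higher in B6 than in SJL. Against the same floor in SWR, where the 1 read lies under it, it was at least 7.61-fold higher in 129 and at least 9.63-fold higher in B6. All 4 of these comparisons were called, with an edgeR FDR of 4.87e-09 or lower. B6 and 129 differed by an LFC of 0.34 ± 0.33 (FDR 0.403), within the spread of the libraries, and by 0.80 (FDR 0.0218) without 129 male 1, still under the fold threshold.

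The share of Hba-a2 in the alpha globin reads is free of depth and of how much blood a library holds. It was 28.2% ± 6.87 in 129 (18.4 to 40.2) and 28.4% ± 5.26 in B6 (22.1 to 39.1; SD, n = 8 each), and the 2 strains differed by a log2 ratio of -0.03 (exact permutation p = 0.868, adjusted p = 0.947). Pooled over libraries, 177 of 592 alpha reads in 129 were Hba-a2 reads (29.9%, Wilson 95% interval 26.4 to 33.7) and 210 of 778 in B6 (27.0%, 24.0 to 30.2). In SJL it was 0 of 1013 alpha reads, which allows a share of up to 0.296%, and in SWR 1 of 1174 (0.0852%, interval 0.0150 to 0.481). These intervals cover counting error only. The 4 comparisons of SJL or SWR with 129 or B6 differed by 28.1 to 28.4 percentage points, each at an exact two-sided permutation p of 0.000155, the smallest that 8 libraries against 8 allow (adjusted p = 0.000466 over 12 comparisons). The summed alpha count was 72.3 ± 53.8 normalized reads in 129, 99.3 ± 42.2 in B6, 119 ± 49.6 in SJL and 133 ± 33.8 for SWR, so the means with both genes together were not lower in SJL and SWR than in B6. As shown with the coding stretches, within the aligned stretch only windows over the site of C381T separate these genes. Transcript bases outside it were not compared with the genome around the other copy, and the promoter windows of the 2 genes were identical over 297 aligned bases. Whether the SJL and SWR reads were placed on the other copy was not tested.

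**Figure D2:**
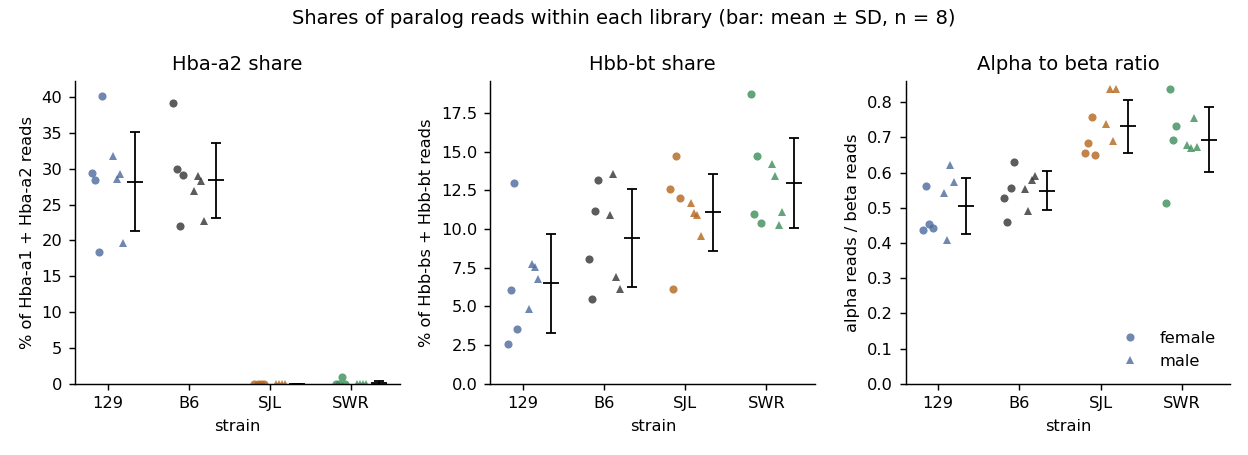
Share of Hba-a2 in the alpha globin reads and of Hbb-bt in the beta globin reads in each library (percent), by strain, with the strain mean and SD (n = 8). The Hba-a2 share lies between 18.4% and 40.2% in 129 and B6 and at 0 in SJL, and the mean Hbb-bt share goes from 6.51% in 129 to 12.98% in SWR with overlapping libraries.

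Hbb-bs, the beta gene with the most reads, was not called in any strain pair. Its normalized counts ran from 70.5 to 351 in 129 (median 97.8, mean 133 ± 92.7), from 72.4 to 265 in B6 (median 148, mean 165 ± 71.1), from 64.3 to 237 in SJL (median 139, mean 145 ± 55.1) and from 118 to 233 in SWR (median 160, mean 167 ± 36.7; SD, n = 8 each). All 4 ranges overlapped. The 6 LFC values lay between -0.22 and 0.33 with SE of 0.27 or 0.28 and FDR of 0.344 to 0.994. Within lanes the direction against 129 was mixed, and B6, SJL and SWR exceeded it in 2, 2 and 3 of the 4 lanes. These values rest in part on 129 male 1. Without it the LFC over 129 was 0.70 in B6 (FDR 0.0173), 0.47 in SJL (FDR 0.138) and 0.69 for SWR (FDR 0.0232), so that B6 and SWR passed the FDR and none passed the fold change.

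Hbb-bt, the other adult beta gene, was lowest in 129. There its normalized counts ran from 2.33 to 17.8 (median 7.59, mean 8.28 ± 4.56, n = 8). They ran from 7.46 to 41.7 in B6 (median 11.1, mean 18.3 ± 12.9), from 6.77 to 27.3 in SJL (median 20.3, mean 18.1 ± 7.49) and from 16.2 to 35.5 in SWR (median 24.1, mean 24.5 ± 5.80). The SWR libraries overlapped those of 129 only through the highest 129 library, and B6 and SJL overlapped 129 more widely. Hbb-bt was called higher than in 129 in B6 (2.20-fold, LFC 1.14 ± 0.36, edgeR FDR 0.00817), in SJL (2.09-fold, LFC 1.07 ± 0.36, FDR 0.0172) and in SWR (2.87-fold, LFC 1.52 ± 0.35, FDR 0.000587). Among B6, SJL and SWR the LFC values were -0.07 to 0.45 and none passed. All 3 differences from 129 had the same sign in the 4 lanes, with within-lane values of 0.64 to 1.05 for B6, 0.18 to 1.77 for SJL and 1.10 to 2.03 for SWR on the log2 scale. The counts are small, between 2 and 41 reads, and the calls in B6 and SJL sat near the fold threshold: that in B6 was lost without B6 male 2 (LFC 0.87), and that in SJL without 129 female 1 or SJL female 1 (LFC 0.94 in each). The call in B6 was also lost without all libraries of replicate number 2 (LFC 0.97, edgeR FDR 0.0545) or 3 (LFC 1.09, FDR 0.0506). That in SJL was also lost without replicate number 3 (LFC 1.05, FDR 0.0748) or 4 (LFC 0.80, FDR 0.169).

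The ratio of Hbb-bs to Hbb-bt within a library was highest in 129. The mean log2 ratio was 4.00 ± 0.77 in 129, 3.34 ± 0.56 in B6, 3.04 ± 0.41 in SJL and 2.77 ± 0.36 for SWR (SD, n = 8 each), and the library means of the linear ratio were 18.1, 10.8, 8.58 and 7.01. Expressed as a share of beta reads, Hbb-bt made up 6.51% ± 3.20 in 129, 9.43% ± 3.19 in B6, 11.1% ± 2.496 in SJL and 12.98% ± 2.92 for SWR. Pooled, these were 69 of 1166 reads in 129 (5.92%, Wilson 95% interval 4.70 to 7.42), 144 of 1438 in B6 (10.01%, 8.57 to 11.7), 152 of 1377 in SJL (11.04%, 9.49 to 12.8) and 213 of 1688 in SWR (12.6%, 11.1 to 14.3). By the exact two-sided permutation test the log2 ratio was lower in SWR than in 129 by -1.22 (p = 0.000777, adjusted p = 0.00186) and lower in SJL than in 129 by -0.95 (p = 0.00746, adjusted p = 0.0149). B6 differed from 129 by -0.66 (permutation p = 0.0727, adjusted p = 0.109) and SWR from B6 by -0.57 (permutation p = 0.0306, adjusted p = 0.0525), neither of which passed after adjustment. SJL differed from B6 by -0.30 and SWR from SJL by -0.27 (permutation p = 0.246 and 0.194), also without passing. Leaving out the libraries with replicate number 1 or 4 ended the result for SJL, at -0.63 (adjusted permutation p = 0.152) and -0.87 (adjusted permutation p = 0.0853). Within lanes the ratio was lower than in 129 in 4 of 4 lanes for SJL and SWR and in 3 of 4 for B6. The haplotype of these 129 mice was not examined, and its effect on placing reads was not tested.

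The alpha to beta ratio separated the strains in another way. Taken as the reads of both alpha genes over those of both beta genes, it was 0.505 ± 0.079 in 129 (0.408 to 0.621), 0.549 ± 0.056 in B6 (0.459 to 0.632), 0.731 ± 0.075 in SJL (0.651 to 0.837) and 0.694 ± 0.093 for SWR (0.513 to 0.839; SD, n = 8 each). These are ratios of assignable reads and not of mRNA, and they are given as a description. No SJL library fell within the range of 129 or B6, while SWR overlapped both. In each of the 4 lanes the means of SJL and SWR were above those of 129 and B6, by 0.055 to 0.286. When the alpha globin level of each library was entered in the fit as a term, Hbb-bs was lower in SJL than in 129 by an LFC of -0.63 (edgeR FDR 2.94e-06) and in SWR by -0.54 (FDR 5.04e-05). Against B6 these values were -0.43 (FDR 0.000111) and -0.34 (FDR 0.00179), and none reached an absolute LFC of 1. In the same fit the 3 calls of Hbb-bt were lost, at an LFC of 0.54 in B6 (FDR 0.139), 0.35 in SJL (FDR 0.424) and 0.71 for SWR (FDR 0.0720) over 129. The alpha level is itself a count of reads placed on Hba-a1 and Hba-a2, so strain differences in that placement enter these values, and their part was not tested.

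Alas2 lies on chrX:150547375-150570638 on the plus strand and was near the limit of detection. Its normalized counts ran from 1.19 to 19.7 in 129 (median 5.13, mean 6.65 ± 5.91), from 4.77 to 19.4 in B6 (median 14.6, mean 12.7 ± 5.40), from 1.93 to 17.7 in SJL (median 10.7, mean 10.5 ± 5.35) and from 4.71 to 17.7 in SWR (median 11.5, mean 11.5 ± 4.46; SD, n = 8 each). All strains overlapped, and the raw counts were 1 to 23 reads. No strain pair was called: the LFC over 129 was 0.93 ± 0.40 in B6 (FDR 0.0523), 0.59 ± 0.41 in SJL (FDR 0.273) and 0.74 ± 0.40 for SWR (FDR 0.138). These outcomes turned on 129 male 1, the 129 library with the most Alas2 reads, and without it all 3 passed, at an LFC of 1.44 (FDR 0.00243), 1.11 (FDR 0.0264) and 1.25 (FDR 0.00990). The difference between B6 and 129 also passed without 129 female 2 (LFC 1.004), B6 female 1 (1.002) or B6 male 4 (1.06). Within lanes the signs against 129 were mixed, with 3, 2 and 3 of 4 lanes above 0 for B6, SJL and SWR.

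Genes that are silent or nearly so in this tissue carried the fewest reads in 129 as well. The 8 embryonic and minor globins of the count table, among them Hba-x and Hbb-bh1, held 1 read in all 129 libraries together, 32 in B6, 18 in SJL and 19 for SWR. The 38 annotated genes within 200 kb of the beta pair, most of them olfactory receptors, were all under the filter, and their summed normalized count was 15.7 in 129 (5.81 to 23.9), 46.7 in B6 (19.1 to 104), 24.6 in SJL (13.5 to 52.3) and 19.0 for SWR (14.9 to 24.1). The part of such a background in the values of Hbb-bt and Alas2 was not tested. Over the 8 embryonic and minor globins it amounted to 0.686 normalized reads a gene in B6, and over the beta neighbours to 1.23, against 18.3 for Hbb-bt and 12.7 for Alas2 in that strain.

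Set against all tested genes, the members were called in the following numbers. Of the 5 genes 1 was called between B6 and 129, where 11.1% of the 18382 tested genes were called. It was 1 of 5 between SJL and B6 (background 7.99%), 1 of 5 between SWR and B6 (8.05%) and 0 of 5 between SWR and SJL (4.5%). Between SJL and 129 it was 3 of 5 against a background of 8.38%, and between SWR and 129 3 of 5 against 7.73%. The genes were Hba-a1, Hba-a2 and Hbb-bt in the last 2 pairs, which share the 129 libraries. Hbb-bt was the call between B6 and 129, and Hba-a2 that of SJL and of SWR against B6. The calls of Hba-a1 and Hba-a2 may not be separate, since whether SJL and SWR reads were placed on the other copy was not tested. Summed over both alpha genes the mean normalized count was 72.3 in 129, 119 in SJL and 133 in SWR, and the sum was not tested. The median LFC of all tested genes stayed between -0.02 and 0.02 in the 6 pairs.

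**Figure D3:**
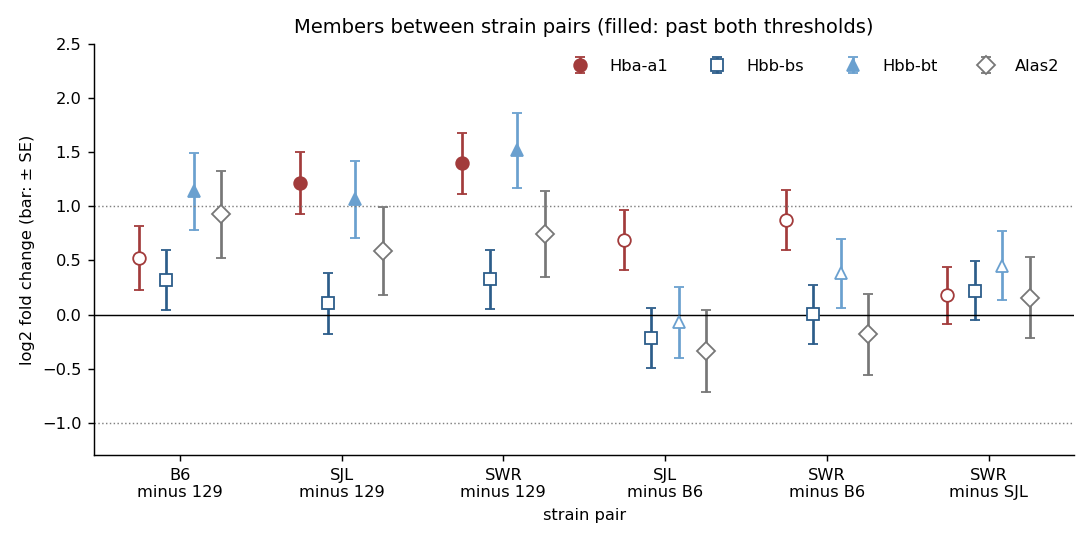
LFC with SE of Hba-a1, Hbb-bs, Hbb-bt and Alas2 in the 6 strain pairs, from the fit over all 32 libraries, with lines at an absolute LFC of 1. The 6 values of Hbb-bs lie between -0.22 and 0.33, and the values of Hba-a1 and Hbb-bt over 129 lie above 0. Hba-a2 is not drawn, and its fitted values against SJL and SWR rest on libraries at or near 0 and are no bounds.

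Sex had no called effect on any of the 5 genes. Over all strains the LFC of males over females was 0.33 ± 0.20 for Hba-a1 (FDR 0.662), 0.56 ± 0.32 for Hba-a2 (FDR 0.647), 0.26 ± 0.20 for Hbb-bs (FDR 0.765), 0.17 ± 0.24 for Hbb-bt (FDR 0.910) and -0.04 ± 0.28 for the X-linked Alas2 (FDR 0.989). The count of 0 members by edgeR, and of 0 by DESeq2, stands against a background of 0.0381%, or 7 genes, and 0 members had an unadjusted p under 0.05. Within strains 0 members were called as well, against 0.0381% of genes in 129, 0.0544% in B6, 0.0544% in SJL and 0.0816% for SWR. The sex difference did not differ among strains for any member by the interaction test (FDR 0.815 to 0.940), against a background of 0.0163%. These values do not show that the sexes are alike, since an SE of 0.20 to 0.32 leaves room for differences larger than the SE. The value of Hba-a2 rests on 129 and B6, as the gene was at or near 0 in SJL and SWR. Within strains the SE of the other members ran from 0.37 (Hba-a1 in SWR) to 0.62 (Alas2 in 129).

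Hba-a1 and Hbb-bs varied together from mouse to mouse within strains, and the other members did so less closely. The LFC values above compare strains, and the following values instead compare the libraries after each gene's log2 normalized count (plus 1) was centred on its strain mean. Over 32 libraries Hba-a1 and Hbb-bs had r = 0.937 and Spearman's rho = 0.911 (permutation p = 1e-05 for each, the smallest that 100000 shuffles within strains can give). Without 129 male 1 and SJL male 1, the libraries farthest from the median of Hbb-bs, r was 0.904. Within the strains r was 0.917 in 129, 0.951 in B6, 0.969 in SJL and 0.894 for SWR (n = 8 each, given as a description with no permutation p). Among the 18381 other tested genes Hba-a1 was the 1st by rho with Hbb-bs, Alas2 the 2nd and Hbb-bt the 3rd.

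The looser relations concerned the genes with fewer reads. Alas2 had r = 0.689 and rho = 0.679 with Hbb-bs (permutation p = 0.0001 and 6e-05), and r was 0.616 without the 2 farthest libraries. Hbb-bt had r = 0.708 and rho = 0.674 with Hbb-bs (permutation p = 8e-05 and 0.00013), and r was 0.639 without them, with 0.564, 0.822, 0.835 and 0.402 within 129, B6, SJL and SWR. Hba-a1 and Hbb-bt had r = 0.742 and rho = 0.696 (permutation p = 6e-05 and 0.0001), with r of 0.698 in 129, 0.852 in B6 and 0.848 in SJL but 0.0235 within SWR (n = 8 each, a description with no permutation p). By rho with Hbb-bt the 1st of the 18381 genes was Fancf (0.699), ahead of Hba-a1 and Hbb-bs. Hba-a2 could be followed only in the 16 libraries of 129 and B6, where it had r = 0.921 and rho = 0.909 with Hbb-bs and r = 0.844 and rho = 0.800 with Hba-a1. Without 129 male 1 and B6 male 2, r with Hba-a1 was 0.688. By rho with Hba-a2, Stx4a (0.868) and Elf4 (0.821) came ahead of Hba-a1, the 4th. Alas2 (rho 0.550) was the 199th there and Hbb-bt (rho 0.532) the 257th. By rho with Alas2, Hbb-bs was the 1st and Hba-a1 the 8th. Hbb-bt and Alas2 had the weakest tie among genes followed in all libraries (r = 0.513, rho = 0.455). In this family each member was set against 18381 genes, and the smallest permutation p gives an adjusted p of 0.184, so that no single gene could pass 0.05. For none of the 5 members did a gene pass, and the order of the genes is a description.

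**Figure D4:**
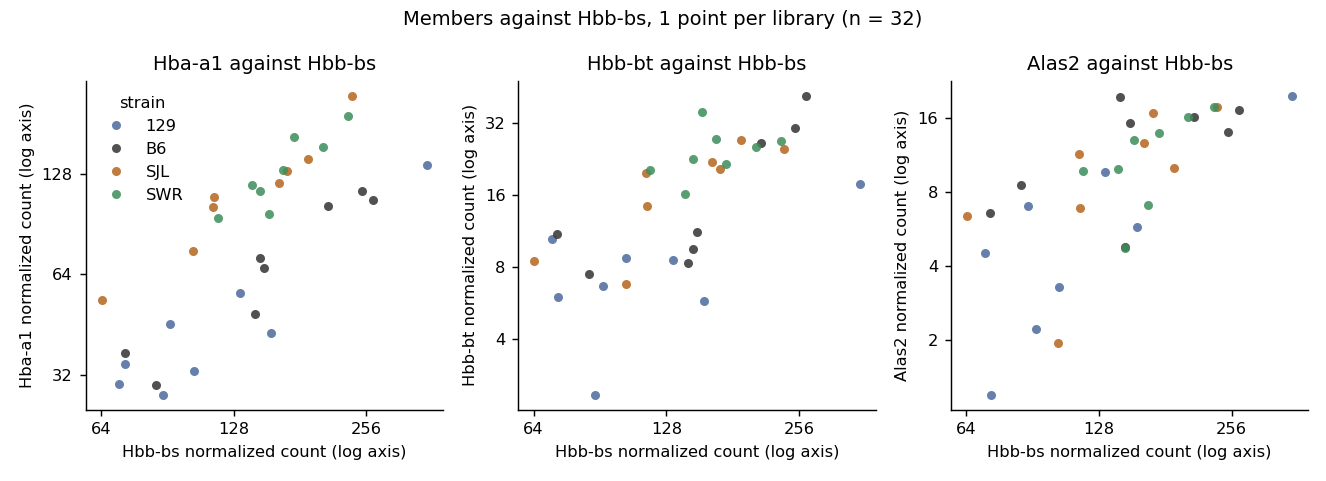
Normalized counts of Hba-a1, Hbb-bt and Alas2 against those of Hbb-bs on log axes, 1 point for each library, by strain. Of these genes Hba-a1 had the highest rho with Hbb-bs after strain centring (0.911). The point farthest to the right is 129 male 1.

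Outside the 5 genes, those with the highest rho to Hbb-bs were Prss35 (0.631), Fancf (0.575), Gm37464, 4933404O12Rik, Gm12279, Pias3, Dcpp3, Gm37106, Gm42659 and Gm37553 (0.537). For Alas2 they were 4930596I21Rik (0.658), Gm26890, Rcan2, Gm44116, Gm43051, Gm37006, RP24-325N9.5, Vwa7, Mir5125 and Gm37159 (0.571). These are the 10 highest of 18381 genes each, and all lay below the values of Hba-a1 and Alas2 with Hbb-bs or, for Alas2, of Hbb-bs.

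The heme synthesis enzymes other than Alas2 are active in most cells. All 8 were tested and 1, Alad, was called in a strain pair, beside 19.8% of all tested genes called in at least 1 pair. Alad, which makes porphobilinogen and is named here for its values, had a normalized count of 250 ± 22.9 in B6, against 431 ± 33.3 in 129, 599 ± 35.6 in SJL and 564 ± 22.6 for SWR (SD, n = 8), and was called higher in SJL and SWR than in B6. Alas1, the housekeeping counterpart of Alas2, had a mean normalized count of 982 and LFC values over 129 of -0.13 in B6, -0.28 in SJL and -0.33 for SWR. Ppox, the enzyme before the last step, stayed within an absolute LFC of 0.65. The median LFC of the list was between -0.13 and 0.04 in the 6 pairs, beside -0.02 to 0.02 for all genes.

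Of 14 iron supply genes 2 were called in a pair, beside 19.8% of all tested genes. Ftl1, the ferritin light chain, was lower in SJL than in 129 (LFC -1.52 ± 0.06), B6 (-1.41) and SWR, with normalized counts of 1428 ± 147 in SJL and 4071 ± 247 in 129. Steap3, a ferrireductase of the transferrin cycle, was higher than in 129 in B6 (LFC 1.04) and SJL (1.48). Of 8 tested genes of heme breakdown and scavenging 3 were called in a pair, beside the same 19.8%. Hmox1, which opens the heme ring, was lower in B6 than in 129 (LFC -1.24 ± 0.08). Cd163, the hemoglobin scavenger receptor of macrophages, was lower in SWR than in 129 (LFC -2.12), B6 (-2.60) and SJL (-2.91), at 4.45 ± 2.63 normalized reads in SWR and 33.1 ± 9.48 in SJL. Hp, the plasma hemoglobin binder haptoglobin, was lower in SWR than in 129 (LFC -1.70 ± 0.60), and its SD in 129 (110) exceeded its mean there (76.6). Of the other globins only Cygb and Ngb, which act outside red cells, passed the filter, and neither was called.

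Of the genes of red cell proteins 6, 3 and 2 were called in B6, SJL and SWR against 129, and 2, 3 and 2 between SJL and B6, SWR and B6, and SWR and SJL. Of 28 listed genes 26 were in the table, 16 were tested and 6 were called in at least 1 pair, beside 19.8% of all tested genes. Slc4a1, the band 3 anion exchanger of the red cell membrane, was called higher than in 129 in B6 (LFC 2.45 ± 0.58), SJL (2.06 ± 0.59) and SWR (1.61 ± 0.62), at means of 1.28, 8.15, 6.07 and 4.67 normalized reads in 129, B6, SJL and SWR. It did not exceed 14 raw reads in a library, and the silent genes described above were also lowest in 129 and highest in B6. The part of that background in its calls was not tested. Ank1 and Isg20, which are also active outside red cells, were highest in B6, with Ank1 higher than in 129 by an LFC of 1.85 and lower in SJL and SWR than in B6 by -2.497 and -2.82. Sptb and Ermap were also called.

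The defining markers with the fewest reads were at or near 0. Rhag, a membrane protein of the Rh complex, had 0 reads in 129 and at most 5 in a library of the other strains. The summed level of the red cell list lay between 8528 and 9139 normalized reads in 129 and between 9646 and 10235 in B6. It lay between 9128 and 10513 in SJL and between 9588 and 11104 in SWR. Bpgm of this list had a mean of 973, and which cells its reads came from was not tested. Within strains the 16 tested genes had a median rho of -0.09 with Hbb-bs, 6 of them above 0, beside a median of -0.02 and 46.4% above 0 for all genes. Slc4a1 had a rho of 0.240 with Hbb-bs. Of 12 erythroid transcription factors 7 were tested and Tal1 was called, between B6 and 129. Gata1, the master regulator of erythroid genes, had no read in 129 and at most 4 reads in a library of the other strains. Ldb1 and Bcl11a, the most abundant of the list, stayed within an absolute LFC of 0.19.

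**Figure D5:**
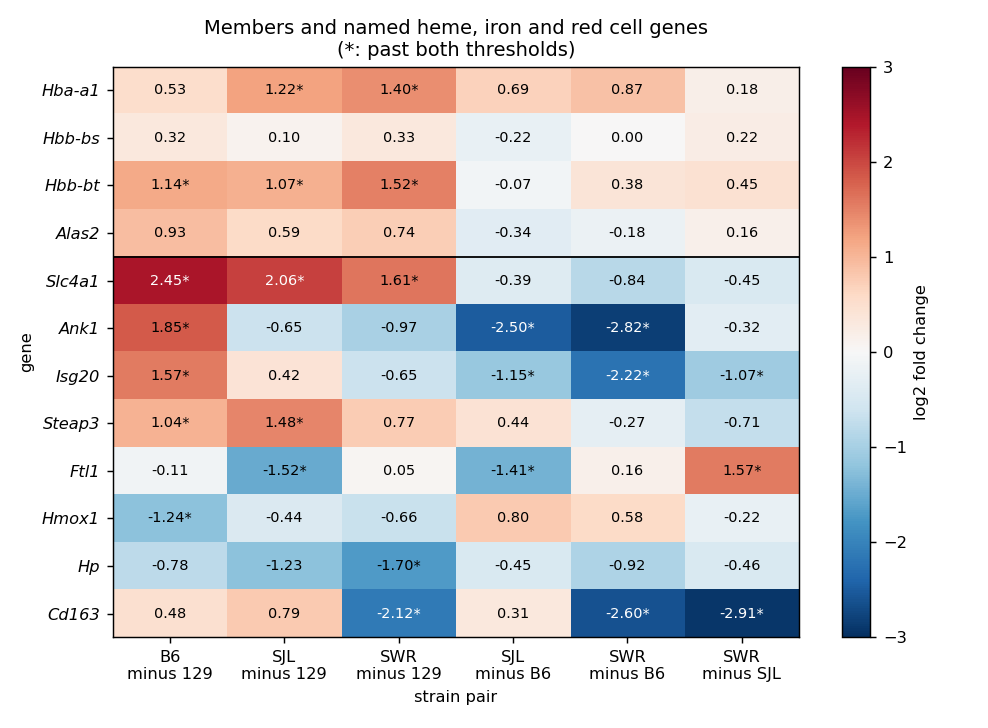
LFC of 4 members and of named genes of red cells, iron supply and heme removal in the 6 strain pairs, with the value printed in each cell. Slc4a1 has positive values against 129 in all 3 strains as Hba-a1 and Hbb-bt do, whereas Ftl1, Ank1, Isg20, Hmox1, Hp and Cd163 have other patterns.

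Markers of other cells were examined in the same strain pairs. The shares of called genes below stand beside 19.8% of all tested genes called in at least 1 pair. The macrophage list had 6 of 8 tested genes called. Cd163, given above, had its lowest level in SWR and its highest in SJL, while C1qa had an LFC over 129 of 1.902 in B6, 1.61 in SJL and 1.04 for SWR. The list's summed level was 585 to 900 normalized reads in 129, 1406 to 2005 in B6, 1197 to 1667 in SJL and 793 to 1140 in SWR. The ranges of 129 and SWR overlapped. Pf4, a platelet chemokine, was called higher than in 129 in B6 (LFC 1.86) and SJL (1.75), 1 of 4 tested platelet genes, and the summed platelet level was 44.5 to 103 in 129, 96.9 to 155 in B6, 68.8 to 108 in SJL and 68.5 to 124 in SWR. Cd4 was called over 129 in all 3 strains (LFC 1.996, 1.87 and 1.73), with Lck not called. Of 3 tested B lymphocyte genes 2 were called, Cd79b among them, with S100a8 the only one of 6 neutrophil genes, Plvap the only one of 10 endothelial genes, and Acan, Bglap2 and Col2a1 the called genes of bone and cartilage (3 of 7). The part of these cells in the strain differences of the globin genes was not tested.

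The genes next to the globins were examined for the same differences. Within 200 kb of the alpha pair 12 other genes are annotated and 6 passed the filter, of which 0 were called in any strain pair, beside 19.8% of all tested genes called in at least 1 pair. Nprl3, whose introns hold the alpha globin enhancers, had mean normalized counts of 304, 307, 306 and 285 in 129, B6, SJL and SWR. Snrnp25 had 89.7, 82.5, 95.6 and 95.5. In the wider list of 12 alpha neighbours 8 were tested and Fgf18 alone was called, lower in SWR than in B6, while Npm1 and Sh3pxd2b stayed within an absolute LFC of 0.35. None of the 38 genes near the beta pair was expressed enough to be tested.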

How the data were processed

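The 5 genes and the gene lists were chosen with earlier results of these data known. Per the labels and the study's methods, total RNA of each mouse's VNO epithelium was depleted of ribosomal RNA, sequenced in read pairs from strand-specific libraries and aligned to mm10 with STAR. The deposited raw counts are uniquely placed reads on genes, and no row lacked a gene. The deposited normalized counts (a signal on the scale of counts) are these counts divided by DESeq2 size factors, which a script checked to a relative deviation of 5.6e-15. Their totals give the depth of each library and limit the precision of genes counted at a few reads.

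Counts were tested with edgeR 4.0.16 in R 4.3.3 (TMM scaling, a low-count filter by filterByExpr with strain and sex combined into 8 groups, and the quasi-likelihood F test) in 1 fit of all 32 libraries with strain and sex. Strain pairs were called at an absolute LFC over 1 and FDR under 0.05, and the sexes over all strains at FDR under 0.01. Sex within strains (absolute LFC over 1, FDR under 0.05) and the interaction (FDR under 0.05) came from the model of group means. FDR were adjusted over the 18382 tested genes. SE were derived from the LFC and the F statistic. The steps were tested on simulated data.

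Ratios were compared by exact two-sided permutation tests of 8 libraries against 8 (12870 arrangements), adjusted over 12 comparisons with SciPy 1.17.1. The log2 ratio of Hba-a1 to Hba-a2 had been planned for all pairs, and because Hba-a2 was 0 in SJL libraries the percent share was used in the 5 pairs with SJL or SWR. Correlations used 100000 shuffles within strains. Of each list, genes called in a strain pair with the largest absolute LFC were named, up to 4, or the 2 most abundant where fewer than 2 were called. Others were named after their values were seen: Alad, Tal1, Fgf18, Pf4, S100a8, Plvap, Cd4, Sptb, Ermap, Rhag, Gata1, Bpgm, Nprl3 and Snrnp25. A few genes of the lists are counted but not reported here by name. Promoter windows came from RefSeq and transcripts from GENCODE. Whether the mice of a group shared a litter is not given in the sources used here, so p-values measure the spread between these mice.

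The alternatives tried were DESeq2 1.42.0, its size factors, no filter on low counts, globin reads left out of the normalization, a lane block, the alpha globin level as a term, other pseudocounts, and leaving out each replicate number and each library.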

Additional observations from a re-analysis of the deposited data

Results flagged for a closer look

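Of 96 sets of 4 or 8 libraries examined for a value far from the rest, 13 held one by Dixon's criterion, and chance alone marks about 1 set in 20. Most of them were 1 library. In 129 male 1 the normalized count of Hba-a1 was 137, with 56.5 in the next of the 8 libraries of 129 and 45.4 in the next of the 4 males. In the same library Hba-a2 was 63.6 (next 28.8, and 14.3 among males), Hbb-bs was 351 (next 156, and 104 among males) and Alas2 was 19.7 (next 9.59, and 3.28 among males). Its globin reads made up 48.0 of every 1000000 reads on genes, with 19.3 in the next 129 library and 13.9 in the next 129 male. Hbb-bt, at 17.8, was highest in the same library among those of 129 but did not meet the criterion.

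The other values concerned ratios. The Hba-a2 share of alpha reads was 39.1% in B6 female 1, with 30% in the next B6 library. The alpha to beta ratio was 0.561 in 129 female 2, with 0.454 in the next of the 4 females, and 0.754 in SWR male 3, with 0.679 in the next of the 4 males.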

How the results depend on the processing

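No called result changed direction under any alternative reported. The uncalled Hbb-bs values against 129 turned from above to below 0 with the alpha globin level as a term (-0.20 between B6 and 129). The values of Hba-a1 and Hba-a2 with that term, which is made from their own reads, are not reported here. The calls in the 6 strain pairs held for Hbb-bs (none) under all alternatives, and for Hba-a2 under all the others. Without the filter on low counts the genes called numbered 10027 between B6 and 129, 4482 between SJL and 129, 3353 between SWR and 129, 2316 between SJL and B6 and 2845 between SWR and B6. By sex they numbered 114 in 129, 136 in B6, 18 in SJL and 24 for SWR, and 428 for the interaction. With DESeq2 they numbered 5225, 2798 and 2356 in B6, SJL and SWR against 129, and 70 for the interaction. Leaving out each replicate number gave 9 to 20 genes by sex in SWR and 1 to 9 for the interaction. For the log2 ratio of Hbb-bs to Hbb-bt between SJL and 129 it gave -1.18 to -0.63, with adjusted permutation p of 0.152 without replicate 1 and 0.0853 without replicate 4.

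For members, Hba-a1 between SJL and 129 fell under the fold threshold without replicate 4 (LFC 0.97). The call of Hbb-bt between B6 and 129 was lost without replicate 2 or 3, and that between SJL and 129 without replicate 3 or 4. Leaving out a replicate number gave rho of 0.301 to 0.720 for Hba-a2 with Hbb-bt, 0.476 to 0.678 for Hba-a2 with Alas2 and 0.404 to 0.559 for Hbb-bt with Alas2. Centring by strain and sex gave 0.441 for Hba-a2 with Hbb-bt (permutation p = 0.0752). Leaving out 129 male 1, and centring by lane, were chosen after seeing the data. Without 129 male 1 the log2 ratio of Hbb-bs to Hbb-bt was lower by -0.91 in SJL and -1.18 in SWR than in 129 (adjusted permutation p = 0.0261 and 0.00373).

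Replicate numbers stand for sequencing lanes. Deviations of same-lane libraries did not go together (112 pairs, r -0.289 to 0.477, median -0.013, and 22 over 0.1), and 5 of 32 libraries were closest to their own lane. With the lane as a replicate block 2050, 1508 and 1390 genes were called in B6, SJL and SWR against 129, the members' calls did not change, and rho of Hba-a2 with Alas2 was 0.503 (permutation p = 0.0969). Depth limits Hba-a2, Hbb-bt and Alas2, at 68 reads or fewer in a library.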
